A study of Mus musculus with 12 samples.

Results

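The left ventricle under pressure overload was compared with the sham-operated left ventricle in mice that all received pimobendan. The comparison used the 3 libraries labelled TAC+pimobendan and the 3 labelled Sham+pimobendan, 6 of the 12 libraries of the series, chosen by surgery and drug alone and each from a separate mouse. All mice were C57BL/6. Sham surgery or transverse aortic constriction (TAC), in which a clip narrows the aortic arch, was done at 8 weeks of age, and the ventricles were taken at 12 weeks. Both groups compared received oral pimobendan at 1 mg/kg/day for 4 weeks, so the drug is shared and the surgery differs. In the values below, sham and loaded ventricles are those of these 2 pimobendan groups unless the control arm is named. The remaining 6 mice had the same surgeries and ages, and their labels name no drug (3 Sham+control and 3 TAC+control). The study addressed whether pimobendan limits the hypertrophy of the loaded heart through mitogen-activated protein (MAP) kinases. No pressure gradient, heart weight or measure of function was used here, so the load that each clip imposed is not known.

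As background, a ventricle that ejects against raised pressure thickens its wall as its cardiomyocytes enlarge, and it classically re-expresses genes of the fetal heart, such as those of the natriuretic peptides, slow myosin and skeletal actin, while fibroblasts deposit collagen. Signals of stretch and of adrenergic and angiotensin receptors reach the nucleus partly through MAP kinase cascades (MEK and ERK, with JNK and p38 branches). Pimobendan makes cardiac troponin C more sensitive to calcium and inhibits phosphodiesterase 3, the enzyme that degrades cyclic AMP near the calcium stores of the sarcoplasmic reticulum. It is given to strengthen contraction in heart failure.

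Messenger RNA abundance was given as FPKM, fragment counts scaled to gene length and to library size, so levels of different genes can be set side by side. No read counts were used here, so the depth of the libraries is unknown and no counting interval is given. The summed FPKM ran from 610509 to 640959 in Sham+pimobendan and from 593203 to 608040 in TAC+pimobendan. Over genes (not replicates of each other) Pearson's r of log2 values was 0.988 to 0.994 between Sham+pimobendan libraries, 0.986 to 0.990 between TAC+pimobendan libraries and 0.974 to 0.992 between the groups. The tissue label was checked against markers. The ventricular light chain Myl2 had 18780 to 22307 FPKM in the 6 libraries, whereas the atrial light chain Myl7 had 0.0 to 1.34 FPKM, and the T cell marker Cd3e stayed at or below 0.13 FPKM.

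Under pimobendan, pressure overload came with many modest rises and few falls. The test covered 11415 genes that reached 1 FPKM in 3 or more of the 12 libraries. Of these, 530 rose (4.64%) and 28 fell (0.245%), 558 in all (4.89%; limma on log2(FPKM + 1), Benjamini-Hochberg adjusted p under 0.05). The median log2 fold change was 0.65 for risen and -0.49 for fallen genes. Only 48 rises and 3 falls reached an absolute log2 fold change of 1. The leading falls were in smooth muscle actin (Acta2), a collagen chain (Col5a3), the NF-kappaB inhibitor Nfkbia and the transcription factor Cebpd. Risen genes included the Z-disc protein Nexn, the calcium-store protein Trdn, the interferon-induced GTPase Iigp1 and the splicing protein Luc7l3.

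The number of calls varied with the libraries kept, the scaling, the filter and the removal of a trend with base composition. The call count was 0 when Sham+pimobendan replicate 2 was left out (2140 genes at an unadjusted limma p under 0.05), and likewise 0 without Sham+pimobendan replicate 3 (1745), without TAC+pimobendan replicate 2 (1918) and without TAC+pimobendan replicate 3 (1782). It was 328 without Sham+pimobendan replicate 1, and 1225 without TAC+pimobendan replicate 1. Among the control-arm libraries, which enter only the estimate of spread, leaving out Sham+control replicate 2, TAC+control replicate 1 or TAC+control replicate 3 lowered it to 312, 360 and 366, and leaving out Sham+control replicate 1 raised it to 739. With the 6 libraries fitted alone it was 0 (2535 with unadjusted p under 0.05; lowest adjusted p = 0.0629), and with no filter on low values it was 0 as well (3191; lowest adjusted p = 0.0639). Median-ratio scaling gave 356, quantile normalization 298 and TPM, a unit scaled to the same total in each library, 734 (718 higher and 16 lower). After the trend of each library with transcript GC content was removed, limma called 0 genes (1687 with unadjusted p under 0.05; lowest adjusted p = 0.0957), so each gene described below as risen or fallen passed only in a fit that keeps that trend.

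The trend with GC content separated the groups. In TAC+pimobendan, every library was relatively richer in AT-rich transcripts. For each library, the deviation of each gene from its mean over all 12 was ranked against transcript GC content. Spearman's rho over genes was -0.20, -0.50 and -0.53 in TAC+pimobendan and 0.13, 0.36 and 0.53 in Sham+pimobendan. In the arm without drug, Sham+control had -0.35, 0.084 and 0.46 and TAC+control had 0.12, 0.017 and 0.29, so a single sham mouse without drug also had a clearly negative value. The 530 risen genes had a median transcript GC content of 43.0% and the 28 fallen genes of 56.4%, against 51.2% over all genes tested. In the lowest decile of GC content (33.2% to 43.2%), 279 of 1133 rose (24.6%) and 0 fell, and the median log2 fold change was 0.39. At the other end, in the highest decile (58.6% to 75.7%), 0 rose and 8 fell, and the median was -0.14. Without drug, the medians over the deciles ran only from -0.083 to -0.025. Transcript length moved with the groups too. Its rho was -0.055, 0.0067 and -0.23 in Sham+pimobendan and 0.17, 0.11 and 0.19 in TAC+pimobendan. The median length was 3100 bases for the risen genes against 2130 over all genes tested. The length of a gene is here the median over its annotated transcripts, short ones included (542 bases for Myh6 and 2130 for Ttn). It need not be that of the transcript expressed in the heart. With the length trend of each library removed, limma called 279 genes.

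**Figure D1:**
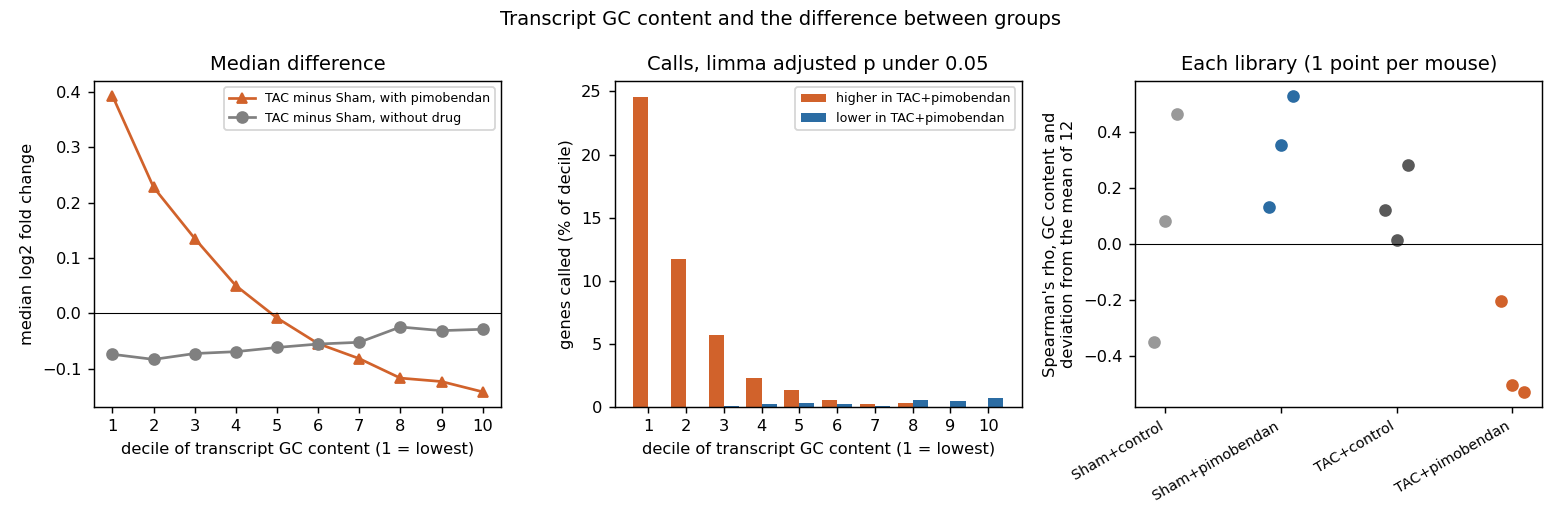
Left, median log2 fold change of FPKM + 1 by decile of transcript GC content, with pimobendan (triangles) and without drug (circles). Middle, the percentage of each decile called higher or lower with pimobendan. Right, Spearman's rho with GC content for each of the 12 libraries. With pimobendan the median runs from 0.39 in the lowest decile to -0.14 in the highest, and all 3 TAC+pimobendan libraries lie at or below -0.20.

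When the GC trend was removed, the size of the changes shrank more among rises than among falls. For the 527 risen genes with a GC value the median log2 fold change was 0.65 before and 0.35 after removal. Of them, 515 kept their sign and 401 had an unadjusted limma p under 0.05. For the 28 fallen genes the median was -0.49 before and -0.42 after, all 28 stayed negative and all 28 had an unadjusted p under 0.05. Because the genes were chosen by the first of these fits, the counts after removal are descriptions.

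The smooth muscle actin Acta2 fell most. It is the contractile actin of vascular smooth muscle and myofibroblasts, and fetal cardiomyocytes express it too. Acta2 (NCBI Gene 11475; GRCm38 chromosome 19, 34240336 to 34255585) had 94.8, 99.1 and 187 FPKM in the 3 Sham+pimobendan mice and 54.9, 34.4 and 21.1 FPKM in the 3 TAC+pimobendan mice. Every loaded ventricle lay below every sham ventricle, and the highest sham value was nearly double the others. On the log2 scale Acta2 fell by 1.79 ± 0.37 (SE; 95% confidence interval -2.59 to -0.99; limma adjusted p = 0.0314), and with the GC trend removed the change was -1.80. Of 16 smooth muscle and pericyte markers Acta2 alone passed the test, beside 0.245% of all genes that fell. Among the others, the smooth muscle myosin Myh11 had a log2 fold change of -0.18, the actin-binding Tagln of -0.49 and the pericyte regulator Rgs5 of 0.50, and none of these passed. The summed FPKM of the 16 markers, Acta2 included, was 1348 to 1443 in Sham+pimobendan and 1203 to 1295 in TAC+pimobendan. In bulk tissue, fewer cells of a type and less RNA per cell cannot be told apart.

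The promoter of Acta2 is shown because this was the largest fall. The 250 bases before a RefSeq transcript start lie on the minus strand of GRCm38.p6 at chr19:34255374-34255623, and the capitals mark a match to the MCAT letters CATTCC read on the opposite strand, 146 bases before the start. MCAT elements are bound by TEAD factors, known regulators of muscle genes.
Acta2: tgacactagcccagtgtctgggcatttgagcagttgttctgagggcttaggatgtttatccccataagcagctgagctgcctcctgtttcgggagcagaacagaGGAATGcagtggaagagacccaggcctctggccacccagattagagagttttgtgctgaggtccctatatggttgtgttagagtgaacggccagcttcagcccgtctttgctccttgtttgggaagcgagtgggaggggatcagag
The letters CATTCC on either strand occurred in 12.2% of 11753 promoter windows of tested genes (250 bases before to 50 after a start), in 7.14% of the 28 windows of fallen genes and in 9.72% of the 535 windows of risen genes. The match is a description and not evidence of a bound site.

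A collagen chain, an inhibitor of NF-kappaB and a transcription factor also fell. Col5a3, a chain of the fibril-forming collagen V (NCBI Gene 53867; chromosome 9, 20770050 to 20815117), had 5.64, 6.85 and 6.49 FPKM in Sham+pimobendan and 4.32, 1.76 and 2.08 FPKM in TAC+pimobendan. The groups did not overlap (log2 fold change -1.04 ± 0.27, limma adjusted p = 0.0455). Nfkbia, which holds NF-kappaB in the cytoplasm and is itself an NF-kappaB target (NCBI Gene 18035; chromosome 12, 55489409 to 55492647), had 48.4, 46.1 and 35.8 FPKM in sham and 26.3, 25.2 and 25.7 FPKM in loaded ventricles. The loaded mice were closely alike, below all sham mice (log2 fold change -0.72 ± 0.15, limma adjusted p = 0.0314). Cebpd, a transcription factor induced by glucocorticoids and cytokines, had 17.3, 21.1 and 12.3 FPKM against 9.34, 7.93 and 9.69 FPKM. Its groups were also separate (-0.81 ± 0.17, limma adjusted p = 0.0314). Nfkbia was the single call among 28 cytokine and chemokine genes, beside 0.245% of all genes that fell. The median of that list was -0.074, and it turned positive without Sham+pimobendan replicate 2 or 3 or TAC+pimobendan replicate 2.

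A pair of endothelial junction genes fell. Pecam1, the adhesion molecule CD31, had 72.7, 100.2 and 90.2 FPKM in Sham+pimobendan and 68.1, 59.4 and 63.0 FPKM in TAC+pimobendan. The lowest sham value lay just above the highest loaded value (log2 fold change -0.45 ± 0.12, limma adjusted p = 0.0497). Esam, an adhesion molecule of tight junctions, had 53.6, 62.2 and 57.3 FPKM against 48.4, 42.6 and 40.7 FPKM, without overlap (-0.39 ± 0.095, limma adjusted p = 0.0409). Of 18 endothelial markers these 2 fell, beside 0.245% of all genes, and 0 rose. Their median was -0.086, and from -0.23 without Sham+pimobendan replicate 1 to -0.023 without TAC+pimobendan replicate 2. The cadherin Cdh5 stood at -0.40 and the VEGF receptor Kdr at -0.28, and neither passed. Of the 18 markers, 10 had a negative and 8 a positive log2 fold change, the highest at 0.37. The summed FPKM of the 18 markers was 2147 to 2291 in Sham+pimobendan and 1950 to 2477 in TAC+pimobendan, so the sums overlapped.

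Of single genes of lipid handling, Plin5, Aqp7 and Acads fell and Lpl rose. They came from different lists or from the largest falls, and no list of lipid handling as such was used. Plin5, which tethers lipid droplets to mitochondria (NCBI Gene 66968; chromosome 17, 56111597 to 56117606), had 113, 103 and 103 FPKM in sham and 74.0, 58.5 and 87.4 FPKM in loaded ventricles. All loaded values were lower (log2 fold change -0.55 ± 0.13, limma adjusted p = 0.0386). Aqp7, a channel for glycerol, had 16.8, 18.4 and 15.1 FPKM against 12.5, 10.4 and 9.93 FPKM, again without overlap (-0.58 ± 0.11, limma adjusted p = 0.0314). Acads, the short-chain acyl-CoA dehydrogenase, had 151, 163 and 164 FPKM against 138, 124 and 125 FPKM. Its change of -0.30 ± 0.080 (limma adjusted p = 0.0497) became -0.17 with the GC trend removed. The opposite direction was seen for lipoprotein lipase, Lpl, the enzyme that releases fatty acids from circulating triglyceride (NCBI Gene 16956; chromosome 8, 68880555 to 68906932). Lpl had 921, 769 and 663 FPKM in sham and 1063, 1373 and 1738 FPKM in loaded ventricles. Each loaded mouse exceeded each sham mouse (0.81 ± 0.17, limma adjusted p = 0.0315; 0.50 with the GC trend removed).

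The remaining large falls were in genes of other functions. Rnf144a, an E3 ubiquitin ligase, fell from 6.82 ± 1.33 to 3.96 ± 0.78 FPKM (mean ± SD, n = 3 in each group; log2 fold change -0.66 ± 0.17). Galnt18, a glycosyltransferase of the GalNAc family, fell from 8.43 ± 1.53 to 5.11 ± 0.25 FPKM (-0.61 ± 0.14). Zfyve19, a regulator of abscission at the end of cell division, fell from 8.03 ± 0.23 to 4.98 ± 0.98 FPKM (-0.61 ± 0.12). Their limma adjusted p values were 0.0467, 0.0348 and 0.0314.

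Nexn, Xirp2, Nebl and Ttn, which encode proteins of the contractile apparatus and its attachments, rose. Nexn, nexilin, an actin-binding protein of the Z-disc and of cardiac dyads (NCBI Gene 68810; chromosome 3, 152236982 to 152266350), had 40.3, 33.0 and 27.1 FPKM in Sham+pimobendan and 54.6, 124 and 95.3 FPKM in TAC+pimobendan. TAC+pimobendan replicate 1 was the lowest of the loaded mice but above all sham mice (log2 fold change 1.36 ± 0.25, limma adjusted p = 0.0314; 0.92 with the GC trend removed). Xirp2, an actin-bundling repeat protein of intercalated discs (NCBI Gene 241431; chromosome 2, 67446000 to 67526620), had 11.7, 10.02 and 8.66 FPKM against 15.7, 32.7 and 29.0 FPKM. The same order of loaded mice was seen, without overlap (1.22 ± 0.23, limma adjusted p = 0.0314). Nebl, nebulette, which links thin filaments to the Z-disc, had 14.3, 14.2 and 12.2 FPKM against 20.6, 34.2 and 33.4 FPKM. Its rise of 1.03 ± 0.20 (limma adjusted p = 0.0314) became 0.68 with the GC trend removed. Ttn, titin, the elastic filament that spans the sarcomere, had 28.6, 27.5 and 23.5 FPKM against 34.3, 43.9 and 49.3 FPKM, also without overlap (0.65 ± 0.14, limma adjusted p = 0.0314), a rise close to the median of all risen genes. Nebl and Ttn were the 2 called members of 22 sarcomere genes, beside 4.64% of all genes that rose, and 20 did not pass. The median of the list was 0.00099. It was -0.034 under median-ratio scaling, and ran from -0.027 without TAC+pimobendan replicate 2 to 0.027 without TAC+pimobendan replicate 3.

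Of 17 genes of calcium cycling, Trdn, Pln and Atp2b1 rose and 0 fell, beside 4.64% of all genes that rose. Trdn, triadin, which anchors calsequestrin to the ryanodine receptor (NCBI Gene 76757; chromosome 10, 33083483 to 33476709), had 10.96, 8.27 and 7.07 FPKM in sham and 14.5, 36.1 and 26.4 FPKM in loaded ventricles. TAC+pimobendan replicate 1 again lay nearest to the sham mice, above all of them (log2 fold change 1.38 ± 0.27, limma adjusted p = 0.0314; 0.93 with the GC trend removed). Pln, phospholamban, which restrains the pump until cyclic AMP signals through protein kinase A release it (NCBI Gene 18821; chromosome 10, 53337686 to 53345999), had 2607, 2384 and 2186 FPKM against 3030, 3471 and 3838 FPKM. Every loaded value was higher, and the rise of 0.52 ± 0.10 (limma adjusted p = 0.0314) became 0.24 with the GC trend removed. Atp2b1, a calcium pump of the plasma membrane, had 3.75, 3.89 and 3.49 FPKM against 5.03, 6.76 and 7.61 FPKM, without overlap (0.65 ± 0.14, limma adjusted p = 0.0314; 0.43 with the trend removed). Of the 17 genes, 14 had a positive log2 fold change (median 0.13). Atp2a2, the calcium pump that Pln restrains, had 3705, 3837 and 3857 FPKM against 3805, 3606 and 4149 FPKM. Its groups overlapped and its log2 fold change was 0.018 ± 0.068, with a confidence interval from -0.13 to 0.16.

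Of 19 potassium and pacemaker channel genes, the inward rectifiers Kcnj2 and Kcnj3 rose and 0 fell, beside 4.64% of all genes that rose. Kcnj2, the main pore of the resting potassium current of the ventricle, had 6.66, 7.14 and 6.49 FPKM in sham and 9.27, 10.8 and 11.8 FPKM in loaded ventricles. Kcnj3, a pore of the acetylcholine-activated current, which is mainly atrial, had 12.4, 11.1 and 10.5 FPKM against 14.4, 19.9 and 19.3 FPKM. Neither gene had overlapping groups, with log2 fold changes of 0.58 ± 0.13 for Kcnj2 (limma adjusted p = 0.0324) and 0.61 ± 0.14 for Kcnj3 (limma adjusted p = 0.0342). With the GC trend removed they were 0.16 and 0.32. The list of 19 had a median of 0.092, which was 0.16 without Sham+pimobendan replicate 2 and 0.14 without Sham+pimobendan replicate 3.

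**Figure D2:**
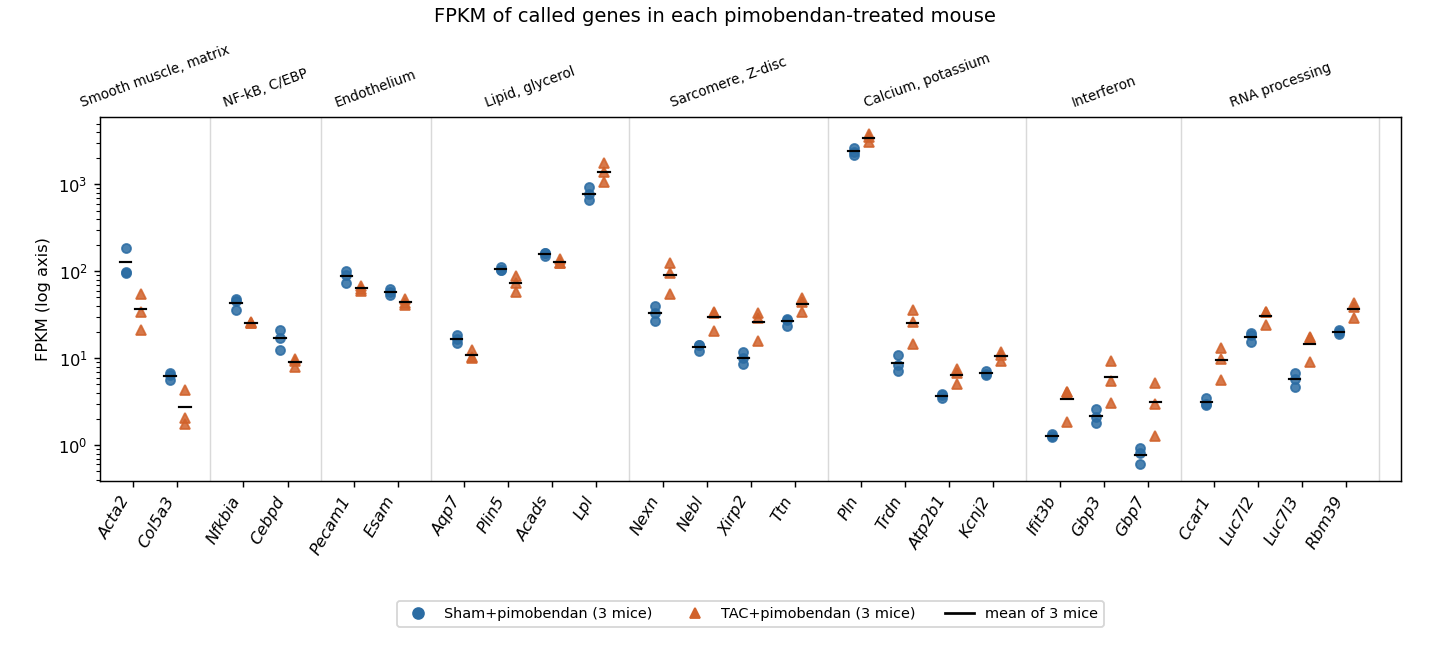
FPKM on a log axis of genes called in the comparison, for each of the 3 Sham+pimobendan mice (circles) and the 3 TAC+pimobendan mice (triangles), with the mean of each group as a bar. The falls (Acta2 to Acads) are on the left and the rises from Lpl onwards on the right, and Nexn shows a lowest loaded value of 54.6 above a highest sham value of 40.3.

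The largest rises by fold were spread over several functions. Gpr22, an orphan receptor of the heart and brain (NCBI Gene 73010; chromosome 12, 31706867 to 31713883), had 3.48, 2.64 and 1.88 FPKM in sham and 6.29, 9.98 and 10.7 FPKM in loaded ventricles. The groups were separate (log2 fold change 1.44 ± 0.21, limma adjusted p = 0.0314; 0.92 with the GC trend removed). Zfp445, a zinc finger protein of genomic imprinting, had 4.00, 2.16 and 1.96 FPKM against 4.61, 10.2 and 12.6 FPKM. Here TAC+pimobendan replicate 1 was close to the highest sham mouse (1.398 ± 0.30, limma adjusted p = 0.0314). Ppp1r3a, a muscle subunit that directs protein phosphatase 1 to glycogen, rose from 5.59 ± 1.86 to 16.8 ± 8.29 FPKM (1.36 ± 0.30, limma adjusted p = 0.0333; 0.76 with the trend removed). Ogn, the small leucine-rich matrix proteoglycan osteoglycin, rose from 13.5 ± 3.64 to 35.5 ± 12.8 FPKM (1.29 ± 0.31, limma adjusted p = 0.0386; 0.68 with the trend removed). Ccar1, a coactivator of cell cycle and apoptosis genes, rose from 3.12 ± 0.30 to 9.51 ± 3.85 FPKM (1.28 ± 0.24, limma adjusted p = 0.0314).

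RNA splicing factors rose in 6 of 25 genes and fell in 0, beside 4.64% of all genes that rose. The list, of serine- and arginine-rich (SR) proteins, related factors and the CLK kinases that phosphorylate them, had a median log2 fold change of 0.30, or 0.19 with the GC trend removed, and its median transcript GC content was 44.9%. Luc7l3, a partner of the U1 small nuclear ribonucleoprotein, had 6.73, 5.73 and 4.68 FPKM in sham and 9.09, 17.5 and 16.9 FPKM in loaded ventricles, without overlap. Its relative Luc7l2 had 19.7, 18.4 and 15.2 FPKM against 24.0, 33.6 and 34.2 FPKM. Rbm39, which helps to choose the 3' splice site, had 21.4, 20.02 and 18.9 FPKM against 28.8, 38.9 and 43.5 FPKM. All 3 genes were higher in every loaded mouse, by log2 fold changes of 1.17 ± 0.23, 0.74 ± 0.14 and 0.83 ± 0.16 (limma adjusted p = 0.0314 for each). With the GC trend removed the same changes were 0.76, 0.50 and 0.51.

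Interferon-response genes rose in 4 of 34 and fell in 0, beside 4.64% of all genes that rose. Of the 34, 29 had a positive log2 fold change, beside 49% of all genes (median 0.37, or 0.26 with the GC trend removed). Without TAC+pimobendan replicate 3 the median was 0.051 and 11 of the 34 were negative. Iigp1, a GTPase that attacks the vacuoles of intracellular parasites and was not a member of the list, had the largest rise of the comparison. It had 8.01, 8.08 and 6.90 FPKM in Sham+pimobendan and 12.3, 23.1 and 77.8 FPKM in TAC+pimobendan. The third loaded mouse was far above the others, though all 3 exceeded the sham mice (log2 fold change 1.76 ± 0.45, limma adjusted p = 0.0455). Gbp3, a guanylate-binding protein of antimicrobial defence, had 2.13, 2.63 and 1.79 FPKM against 3.09, 5.54 and 9.40 FPKM. Gbp7, of the same family, had 0.82, 0.92 and 0.60 FPKM against 1.27, 3.00 and 5.19 FPKM. In both, TAC+pimobendan replicate 3 was highest and the groups did not overlap (1.04 ± 0.25, limma adjusted p = 0.0391 for Gbp3; 1.11 ± 0.29, limma adjusted p = 0.0459 for Gbp7). Ifit3b, an interferon-induced protein with tetratricopeptide repeats, had 1.34, 1.24 and 1.29 FPKM against 1.87, 4.12 and 4.08 FPKM, and its groups were apart (0.88 ± 0.18, limma adjusted p = 0.0314). Gbp3, Gbp7 and Ifit3b have close paralogs, and how reads shared by them were assigned is not given in the sources used here. The summed FPKM of the 34 genes was 308, 343 and 280 in sham and 294, 323 and 584 in loaded ventricles, so the sum set only the third loaded mouse apart. The summed macrophage markers were 441, 657 and 527 against 547, 466 and 615, and the part of such cells in the result was not tested.

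Promoters of these 3 list members are shown because interferon acts through a known element there, to which STAT and IRF factors bind. The letters searched were TTTC, any 2 bases and TTTC again, on either strand, a core of the interferon-stimulated response element, and capitals mark the matches. Windows are the 250 bases before a RefSeq transcript start (GRCm38.p6, plus strand): chr19:34607707-34607956 for Ifit3b, chr3:142559794-142560043 for Gbp3 and chr3:142530086-142530335 for Gbp7.
Ifit3b: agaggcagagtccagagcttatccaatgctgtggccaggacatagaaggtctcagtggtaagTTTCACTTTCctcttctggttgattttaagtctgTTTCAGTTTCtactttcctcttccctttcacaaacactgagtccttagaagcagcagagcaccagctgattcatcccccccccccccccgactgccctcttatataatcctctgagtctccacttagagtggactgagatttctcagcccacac
Gbp3: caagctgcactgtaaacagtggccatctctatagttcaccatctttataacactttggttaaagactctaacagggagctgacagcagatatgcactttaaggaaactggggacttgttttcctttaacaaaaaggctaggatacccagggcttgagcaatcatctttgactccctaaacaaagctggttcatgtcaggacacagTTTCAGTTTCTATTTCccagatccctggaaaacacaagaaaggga
Gbp7: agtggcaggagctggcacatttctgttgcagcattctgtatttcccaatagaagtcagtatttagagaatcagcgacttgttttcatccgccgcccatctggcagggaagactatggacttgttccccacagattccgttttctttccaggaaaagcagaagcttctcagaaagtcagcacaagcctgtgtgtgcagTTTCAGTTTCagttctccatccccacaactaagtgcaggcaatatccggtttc
Ifit3b had matches 188 and 154 bases before the start, Gbp3 had overlapping matches at 45 and 39 bases, and Gbp7 had a match at 53 bases. Where a gene had several transcript starts, the window with the most matches was printed. The other Gbp3 window (chr3:142560106-142560405) had 0 matches, so the printed matches are descriptions and not evidence of bound sites. These letters were found in 2.85% of the 11753 windows of tested genes and in 3.55% of the 535 windows of risen genes, so most risen genes had no such match in this window. The cyclic AMP response element TGACGTCA occurred in 3.18% of windows of risen genes and 2.92% of all, and the E-box CACGTG in 12.0% and 9.99%. Median promoter GC content was 62.7% for risen genes, 61.7% for fallen genes and 61.0% for all.

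Of the MAP kinase cascade, the pathway named in the study's title, 2 of 27 genes rose and 0 fell, beside 4.64% of all genes that rose. Rps6ka3, the kinase RSK2 downstream of ERK, had 3.28, 4.17 and 2.59 FPKM in sham and 4.64, 6.53 and 6.97 FPKM in loaded ventricles. It was higher in every loaded mouse, by 0.70 ± 0.17 on the log2 scale (limma adjusted p = 0.0408), and stood at 0.27 with the GC trend removed. The list had a median of 0.019, which was -0.010 under median-ratio scaling and ran from -0.015 without TAC+pimobendan replicate 1 to 0.10 without Sham+pimobendan replicate 2. The ERK gene Mapk3 had a log2 fold change of -0.24 and did not pass. Of 14 feedback genes of the MAP kinases, such as dual-specificity phosphatases, 0 passed limma at an adjusted p under 0.05. An unadjusted p under 0.05 was found for 2, beside 22.9% of all genes, and 9 of the 14 were negative. All loaded values lay above all sham values in 3 of them, Spred1 included, and below in 3 (Dusp6, Spry4 and Errfi1), beside 18.6% and 9.35% of all genes. The median of the 14 was -0.17 (-0.081 without TAC+pimobendan replicate 2). Spred1, the member with the smallest p, stood at 0.34 ± 0.12 (limma adjusted p = 0.111) and at -0.047 with the GC trend removed. These values are transcript levels and not kinase activity.

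Of 30 genes of phosphodiesterases and cyclic AMP signalling, which pimobendan reaches through phosphodiesterase 3, Akap6 and Creb1 rose and 0 fell, beside 4.64% of all genes that rose. Akap6, the scaffold that holds protein kinase A at the nuclear envelope and sarcoplasmic reticulum, had 13.7, 12.7 and 10.4 FPKM against 16.1, 18.7 and 17.5 FPKM. Creb1, the transcription factor that protein kinase A phosphorylates, had 1.46, 1.94 and 1.37 FPKM against 2.33, 3.29 and 3.34 FPKM. The groups of both were separate, with log2 fold changes of 0.48 ± 0.12 for Akap6 (limma adjusted p = 0.0411; 0.31 with the GC trend removed) and 0.62 ± 0.16 for Creb1 (limma adjusted p = 0.0498). Pde3a, the cardiac phosphodiesterase 3, had 8.92, 10.9 and 7.20 FPKM in sham and 9.51, 7.84 and 10.7 FPKM in loaded ventricles. Its groups overlapped (0.054 ± 0.16, confidence interval -0.30 to 0.40), and the value was -0.27 with the GC trend removed. The list of 30 had a median of 0.030, and -0.037 under quantile normalization, and it ran from -0.026 without TAC+pimobendan replicate 3 to 0.051 without Sham+pimobendan replicate 2.

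The markers by which hypertrophy is usually read did not pass, and several varied as much within sham as between groups. Nppa, the atrial natriuretic peptide (NCBI Gene 230899; chromosome 4, 148000722 to 148002074), had 554, 245 and 230.1 FPKM in sham and 331, 521 and 268 FPKM in loaded ventricles. Nppb, the brain natriuretic peptide, had 620.2, 482 and 1117 FPKM against 456, 555 and 322 FPKM. Myh7, the slow myosin heavy chain, had 121, 10.2 and 6.37 FPKM against 80.5, 39.1 and 80.4 FPKM. In each of the 3 genes a single sham mouse held the highest value of all 6, Sham+pimobendan replicate 1 for Nppa and Myh7 and replicate 3 for Nppb. The log2 fold changes were 0.19 ± 0.34 for Nppa (limma adjusted p = 0.766), -0.68 ± 0.35 for Nppb (limma adjusted p = 0.266) and 1.58 ± 0.92 for Myh7 (limma adjusted p = 0.327). The confidence interval of Myh7 ran from -0.41 to 3.56, wide enough to hold a rise of several fold.

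Acta1, the skeletal actin re-expressed in hypertrophy, had 239.7, 255 and 390.5 FPKM in sham and 251, 246 and 131 FPKM in loaded ventricles. The groups overlapped (log2 fold change -0.52 ± 0.60, limma adjusted p = 0.630). Ankrd1, a stretch-responsive ankyrin repeat protein, had 786, 395 and 349 FPKM against 552, 906 and 510.0 FPKM, with overlap (0.41 ± 0.30, limma adjusted p = 0.433). Myh6, the adult fast myosin, had 4907, 4699 and 4824 FPKM against 5041, 4931 and 4945 FPKM. Its loaded values were all higher by a little, and the change of 0.048 ± 0.062 did not pass (limma adjusted p = 0.674). Of 22 natriuretic and fetal genes, Xirp2 rose, Acta2 fell and 20 did not pass, beside 4.64% of all genes that rose and 0.245% that fell. The median of -0.037 was 0.010 on TPM and ran from -0.064 without TAC+pimobendan replicate 3 to 0.011 without TAC+pimobendan replicate 1.

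**Figure D3:**
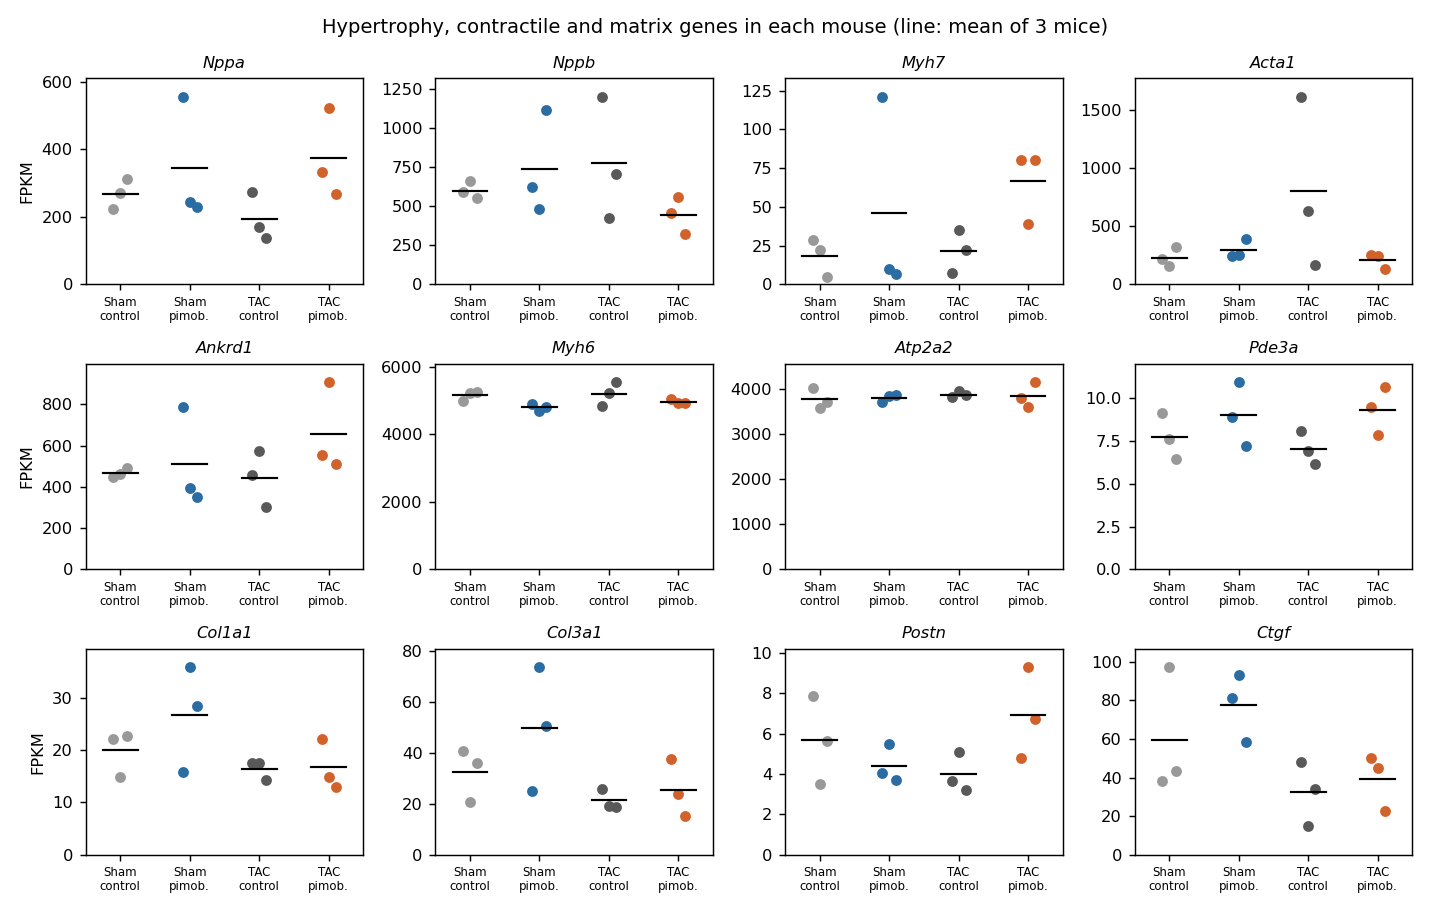
FPKM of 12 genes of hypertrophy, contraction and matrix in each of the 12 mice, with the mean of the 3 mice of a group as a line and each axis starting at 0. In Myh7 the highest of all values is a sham mouse with pimobendan at 121, and Ctgf with pimobendan lies at 58.2 and above in sham mice and at 50.1 and below in loaded mice.

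Matrix and fibrosis genes had 0 calls. Of 33 genes 28 had a negative log2 fold change, beside a median of -0.0061 over all genes (median -0.37, or -0.29 with the GC trend removed), 0 passed limma at an adjusted p under 0.05 and 15 had an unadjusted p under 0.05, beside 22.9% of all genes. Ctgf, the connective tissue growth factor, had 81.5, 93.4 and 58.2 FPKM in sham and 50.1, 44.9 and 22.7 FPKM in loaded ventricles. All loaded values were lower (-1.02 ± 0.43, limma adjusted p = 0.178). Col3a1, the collagen III chain, had 24.8, 73.4 and 50.5 FPKM against 37.4, 23.8 and 15.3 FPKM, and Col1a1, a collagen I chain, had 15.9, 35.9 and 28.4 FPKM against 22.2, 14.96 and 12.9 FPKM. For both collagens the first sham mouse was low and the groups overlapped (-0.89 ± 0.38, limma adjusted p = 0.181 for Col3a1; -0.61 ± 0.26, limma adjusted p = 0.188 for Col1a1). Postn, the periostin of activated fibroblasts, had 4.06, 5.49 and 3.68 FPKM against 4.79, 9.29 and 6.75 FPKM, with overlap (0.53 ± 0.25, limma adjusted p = 0.234). Dcn, the proteoglycan decorin, was the list member with the smallest p at 0.56 ± 0.15 (limma adjusted p = 0.0524), and stood at 0.20 with the GC trend removed. Fibroblast markers, with 0 of 14 called, had summed FPKM of 1234 to 1413 in sham and 1416 to 1506 in loaded ventricles. The sums were separate by a small margin, but they include Dcn and would overlap without it. In 3 of the 14 all loaded values lay above all sham values and in 1 below, beside 18.6% and 9.35% of all genes. The median log2 fold change of the 14 was 0.043 (0.0030 without TAC+pimobendan replicate 3 and 0.10 without Sham+pimobendan replicate 2). Of the defining markers, Dcn was higher in every loaded mouse (199 to 276 FPKM in sham and 292 to 381 FPKM loaded), and the groups overlapped in Tcf21.

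Of 4 lists of energy metabolism, 1 gene passed the test, Acads. Among all genes tested, 4.64% rose, 0.245% fell and 22.9% had an unadjusted limma p under 0.05. In the respiratory chain and ATP synthase, 35 of 43 genes had a negative log2 fold change (median -0.15) and 0 passed limma at an adjusted p under 0.05, with 19 at an unadjusted p under 0.05. In 22 of the 43 all loaded values lay below all sham values, beside 9.35% of all genes. Sdhb, the iron-sulfur subunit of succinate dehydrogenase, had 1214, 1262 and 1377 FPKM in sham and 1114, 1025 and 979 FPKM in loaded ventricles. Its groups were separate (-0.30 ± 0.085, limma adjusted p = 0.0559), and its change was -0.21 with the GC trend removed. The median of the list was -0.18 under median-ratio scaling, -0.086 under quantile normalization, -0.097 on TPM and -0.094 without Sham+pimobendan replicate 3. For 25 genes of fatty acid oxidation the median was -0.12, with 1 fall, that of Acads. It was -0.021 without Sham+pimobendan replicate 1 and -0.028 without TAC+pimobendan replicate 2. Glycolysis genes had a median of -0.11 with 0 of 22 called (6 at an unadjusted p under 0.05), which was -0.18 without Sham+pimobendan replicate 1 and -0.17 without TAC+pimobendan replicate 1. Genes of pyruvate oxidation and the citric acid cycle had a median of -0.063 with 0 of 24 called (10 at an unadjusted p under 0.05), which was -0.037 without Sham+pimobendan replicate 3 and -0.029 without TAC+pimobendan replicate 3. Pdk4, the kinase that shuts off pyruvate oxidation, had the lowest log2 fold change of that list and is given for it. It had 234, 277 and 153 FPKM in sham and 67.9, 52.4 and 79.8 FPKM in loaded ventricles. The groups did not overlap, and the change of -1.69 ± 0.52 did not pass (limma adjusted p = 0.0732). Dld, the dihydrolipoamide dehydrogenase of that list, had 121, 126 and 125 FPKM against 135, 204 and 193 FPKM. It lay higher in every loaded mouse (0.49 ± 0.13, limma adjusted p = 0.0523) and stood at 0.052 with the GC trend removed. Pfkfb2, which makes the activator of phosphofructokinase, had 0.42 ± 0.15 (limma adjusted p = 0.121). Cytosolic ribosomal protein genes had a median of -0.091 with 0 of 38 called and 11 at an unadjusted p under 0.05, and it was -0.0053 under quantile normalization.

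**Figure D4:**
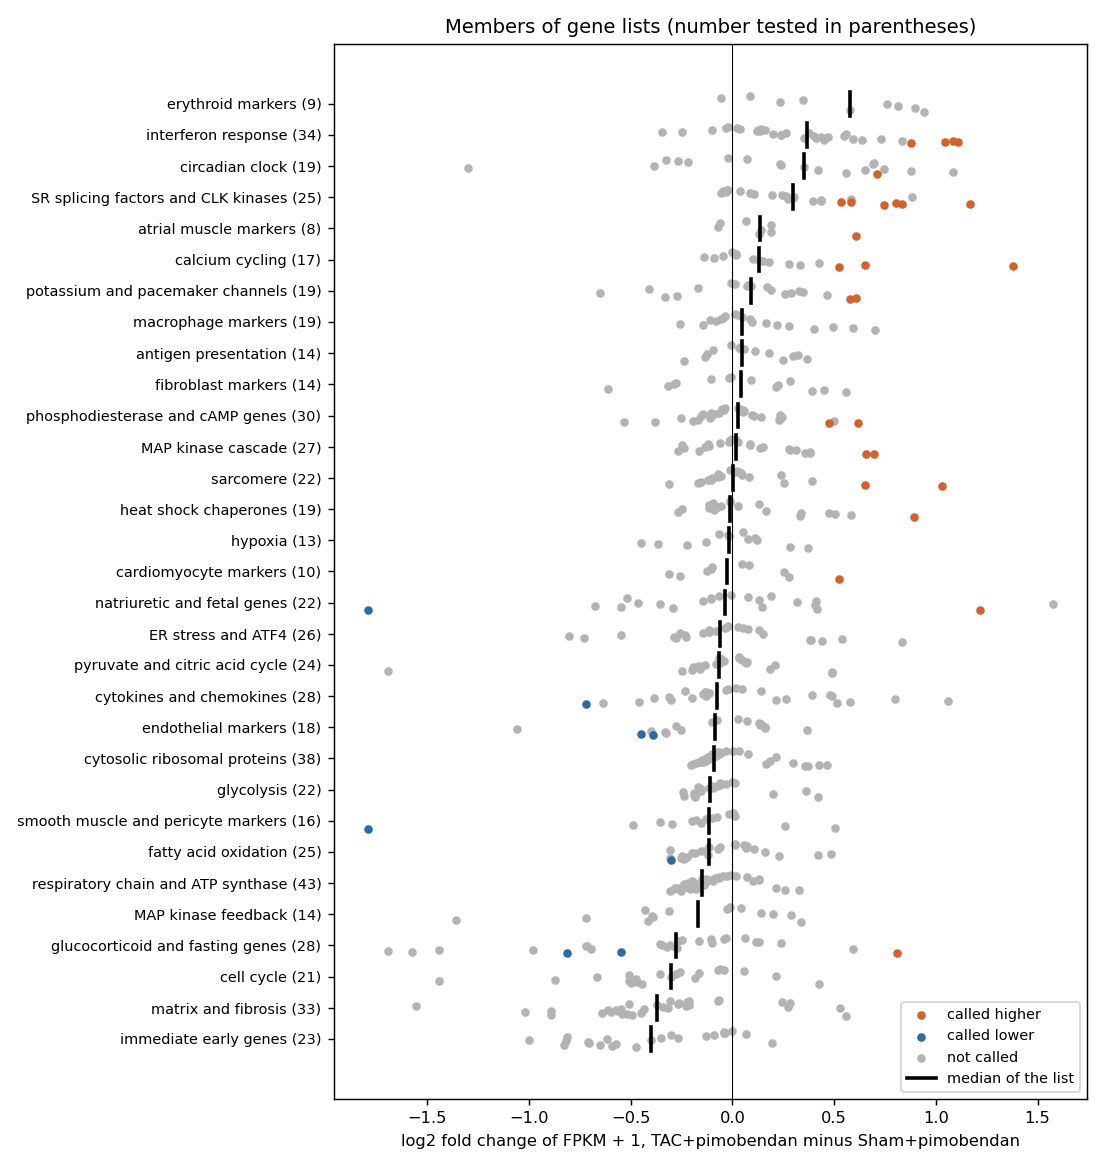
Log2 fold change of FPKM + 1 between TAC+pimobendan and Sham+pimobendan for each tested member of the gene lists with at least 5 tested members, with the median of each list as a bar. Called members are coloured, and the bars run from -0.40 for immediate early genes to 0.58 for erythroid markers.

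Lists of stress and of hormone or clock response gave few calls. The shares to set beside them are those of all genes tested. Of these, 4.64% rose, 0.245% fell and 22.9% had an unadjusted limma p under 0.05. Immediate early genes, the first to be transcribed after a stimulus, were negative in 21 of 23 (median -0.40), with 0 past limma at an adjusted p under 0.05 and 2 at an unadjusted p under 0.05. The median was -0.25 without Sham+pimobendan replicate 1, -0.23 without TAC+pimobendan replicate 1, -0.19 without TAC+pimobendan replicate 2 and -0.64 without TAC+pimobendan replicate 3, and without TAC+pimobendan replicate 1 or replicate 2, 15 of 23 were negative. Jund had the smallest p among them, at -0.47 ± 0.18 (limma adjusted p = 0.140). Their summed FPKM was 1805, 1080 and 1608 in sham and 914, 835 and 1764 in loaded ventricles, where the third mouse stood with the sham mice. Of 28 glucocorticoid and fasting genes Lpl rose and Cebpd and Plin5 fell. In this list 22 of the 28 were negative (median -0.28, or -0.18 with the GC trend removed). The median was -0.10 without Sham+pimobendan replicate 1 and -0.11 without TAC+pimobendan replicate 2. All loaded values lay below all sham values in 8 of the 28 and above in 1, beside 9.35% and 18.6% of all genes. Of 19 clock genes 1 rose and 0 fell, beside 4.64% of all genes that rose. A positive log2 fold change was found in 13 of the 19 (median 0.35, or 0.36 with the GC trend removed). At an unadjusted limma p under 0.05 were 8 of the 19, beside 22.9% of all genes. In 6 all loaded values lay above all sham values and in 2 below, beside 18.6% and 9.35% of all genes. The log2 fold changes of the 19 ran from -1.30 to 1.08. The called gene was Hlf, a transcription factor of the clock output, with 8.16, 6.13 and 5.69 FPKM in sham and 9.69, 13.03 and 11.8 FPKM in loaded ventricles, without overlap (0.71 ± 0.19, limma adjusted p = 0.0496). The hour of sampling was not used here. Among 19 heat shock chaperones Hsp90aa1, the stress-inducible HSP90, rose from 15.8 ± 1.06 to 30.9 ± 8.33 FPKM (0.89 ± 0.23, limma adjusted p = 0.0455), and the list median of -0.010 was 0.039 on TPM and 0.072 without TAC+pimobendan replicate 2. Lists of ER stress (26 genes tested), hypoxia (13), cell cycle (21) and antigen presentation (14) had 0 calls by limma, with 5, 1, 6 and 0 genes at an unadjusted p under 0.05. The members with the smallest p were the ER chaperone Hsp90b1 (0.83 ± 0.27, limma adjusted p = 0.0911), the hypoxia factor Hif1a (0.37 ± 0.13, limma adjusted p = 0.115; -0.035 with the GC trend removed), thymidylate synthase Tyms (0.43 ± 0.13, limma adjusted p = 0.0718) and the class I chain H2-D1 (-0.24 ± 0.12, limma adjusted p = 0.267). Each had the sign opposite to the median of its list. Cell cycle genes were negative in 18 of 21 (median -0.30, or -0.083 without Sham+pimobendan replicate 2). Antigen presentation genes were positive in 9 of 14, beside 49% of all genes (median 0.048, or -0.14 without TAC+pimobendan replicate 3). Negative values were found in 16 of 26 ER stress genes (median -0.058) and in 7 of 13 hypoxia genes (median -0.019).

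Markers of blood and immune cells gave no calls. For this and the other cell types below, 4.64% of all genes tested rose and 22.9% had an unadjusted limma p under 0.05. Of 9 erythroid genes 8 were positive (median 0.58, or 0.22 without Sham+pimobendan replicate 2), 0 passed limma at an adjusted p under 0.05 and 2 had an unadjusted p under 0.05. Hbb-bt, a beta globin, had 33.2, 22.0 and 85.1 FPKM in sham and 45.4, 107 and 95.5 FPKM in loaded ventricles, with overlap (0.94 ± 0.42, limma adjusted p = 0.207). Summed erythroid markers were 552 to 1998 FPKM in sham and 1237 to 2373 FPKM in loaded ventricles. Of 19 macrophage markers 0 passed (3 at an unadjusted p under 0.05), and 12 had a positive log2 fold change (median 0.048). Single mice moved this list. Without Sham+pimobendan replicate 2, 0 of the 19 were negative (median 0.17), and without TAC+pimobendan replicate 3, 14 were negative (median -0.044). The mannose receptor Mrc1 had 2.78, 4.13 and 3.08 FPKM against 4.32, 6.07 and 8.04 FPKM, without overlap (0.70 ± 0.19, limma adjusted p = 0.0511; 0.39 with the GC trend removed). Csf1r, a defining marker whose sign was against most of the list, stood at -0.034. Cardiomyocyte markers had summed FPKM of 85223 to 93288 in sham and 80148 to 90449 in loaded ventricles, and Pln was the single call among the 10. Kcnj3 was the single call among 8 atrial markers. The atrial growth factor Bmp10 and the atrial calcium-pump inhibitor Sln were listed at 0 in all 3 sham mice and at 0 in 2 and 1 of the loaded mice, respectively.

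The same surgery without drug was set beside the comparison with pimobendan. The 2 contrasts share no library, only the pooled estimate of spread, and the difference between them was tested as an interaction. Without drug, the median log2 fold change of the 530 genes that rose under pimobendan was -0.11, with 110 above 0, against a median of -0.057 over all genes. The 28 fallen genes had a median of -0.086 without drug. In the interaction all 530 risen genes were positive, and of the fallen genes 27 were negative and 1 was positive. That direction follows in large part from how these genes were chosen. The interaction called 0 of 11415 genes (limma; 2312 with unadjusted p under 0.05; lowest adjusted p = 0.0853). Without TAC+pimobendan replicate 1 it called 773 and without TAC+control replicate 1 it called 1. So a difference between the drug arms did not pass for any gene with all libraries.

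Single genes differed in how closely the arms ran. Nfkbia stood at -0.72 ± 0.15 with pimobendan and at -0.64 ± 0.15 without (interaction -0.079 ± 0.21, limma adjusted p = 0.872). Esam stood at -0.39 with the drug and at -0.39 without, and Cebpd at -0.81 and -0.63. For Acta2 the changes were -1.79 with pimobendan and -0.24 ± 0.37 without (interaction -1.55 ± 0.52, limma adjusted p = 0.132). Plin5 was lower with pimobendan (-0.55) and had 0.24 ± 0.13 without (interaction -0.79 ± 0.19, limma adjusted p = 0.0853). Lpl had 0.81 with and -0.28 ± 0.17 without drug (interaction 1.09 ± 0.25, limma adjusted p = 0.0853). Trdn had 1.38 and -0.16 ± 0.27 (interaction 1.54 ± 0.38, limma adjusted p = 0.0854), and Kcnj2 had 0.58 and -0.31 ± 0.13 (interaction 0.89 ± 0.18, limma adjusted p = 0.0853). Pln had 0.52 and -0.0090 ± 0.10 (interaction 0.53 ± 0.14, limma adjusted p = 0.0911). Acta1 went from 1.32 ± 0.60 without drug to -0.52 ± 0.60 with it (interaction -1.84 ± 0.85, limma adjusted p = 0.244).

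**Figure D5:**
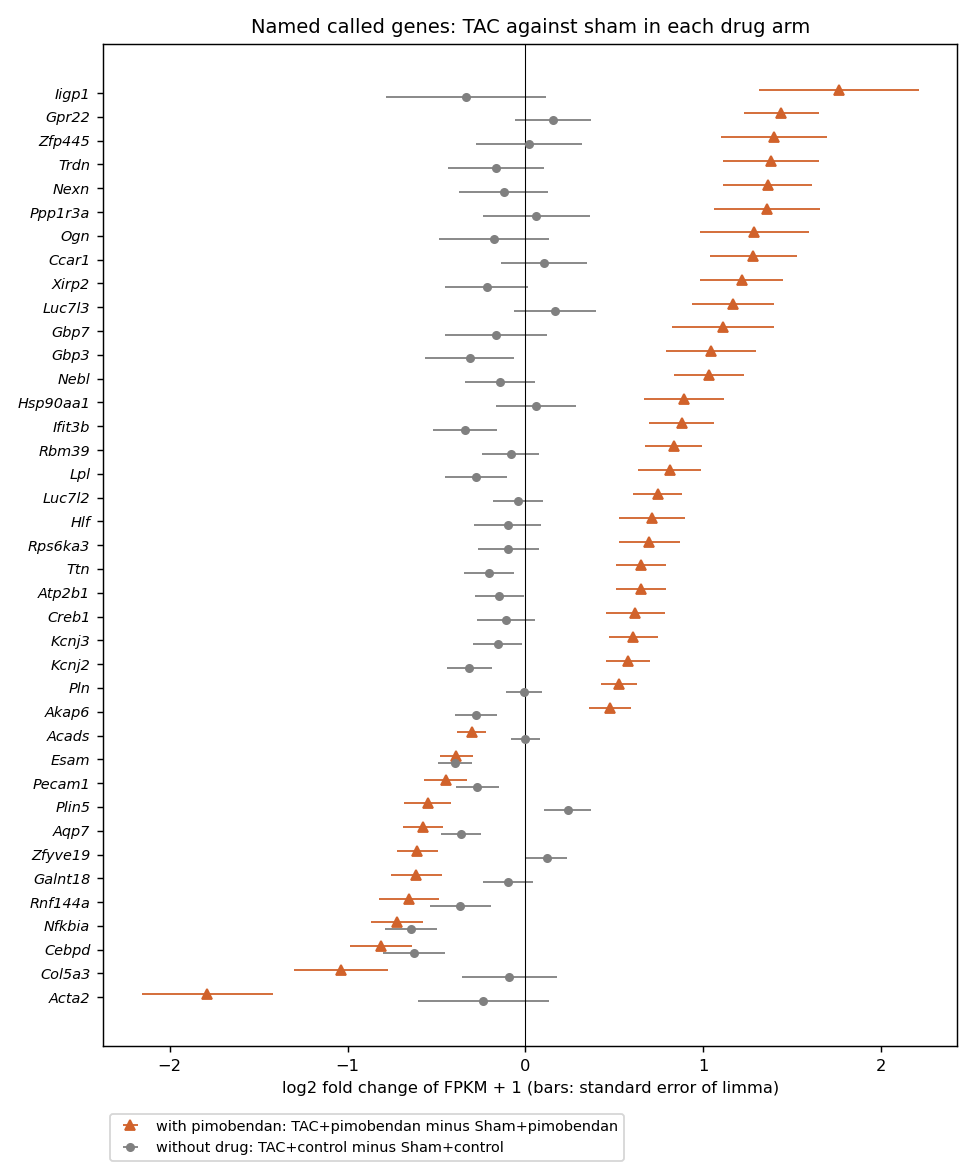
Log2 fold change of FPKM + 1 (bars, standard error of limma) for genes named in the text and called under pimobendan, with pimobendan (triangles) and without drug (circles). Nfkbia and Esam have nearly the same value in both arms, at -0.72 and -0.64 and at -0.39 and -0.39, whereas Trdn lies at 1.38 with pimobendan and -0.16 without.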

How the data were processed

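Messenger RNA of the left ventricle was measured in 12 mice, 3 per group. Per the labels' protocols, RNA was selected with oligo(dT) beads and libraries were made by random priming, in a protocol that does not state strand marking. The authors deposited a table of FPKM and of TPM per gene and sample, rounded to 2 decimals. Tools named in the submitters' processing notes, without roles, are RSEM 1.2.12, the aligners Bowtie2 2.2.5 and HISAT2 2.0.4, and DESeq2 1.4.5, and the build is GRCm38. TPM served only as an alternative.

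The main test was limma 3.58.1 in R 4.3.3 with a mean-variance trend on log2(FPKM + 1), over all 12 libraries with 4 group means (8 residual degrees of freedom), with Benjamini-Hochberg adjustment over 11415 of 17052 genes (at least 1 FPKM in 3 libraries). The pseudocount of 1 understates fold changes of low genes. The script was tested on simulated data with independent noise for each gene and library and no trend with GC content or length. That test does not show how many false calls such trends give. GC content and length were medians over GENCODE M21 transcripts (GRCm38), available for 11327 tested genes. A library's trend was removed by loess with a span of 0.3. Coordinates and promoters came from RefSeq (GRCm38.p6), matched by NCBI Gene ID for 16941 genes, with promoters for 9129 tested genes.

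Named genes were a panel of 12, the 8 largest rises and 8 largest falls among called genes (groups apart, higher group at 5 FPKM or more), and, for lists with at least 5 tested members, the 3 called members with the smallest p or the 1 with the smallest p. Other genes named in the text were chosen after their values were seen. Members and lists were chosen with earlier results of these data known. Of 40 lists, those of T and NK cells, B cells and lung had 0 tested members. Those of neutrophils (3), Schwann cells (4), mesothelium (1), adipocytes (1), skeletal muscle (2) and thymus (1) had too few, and their genes are not described. Some list members that the naming rule would take are not reported here. A second gene ID that carries the symbol Plin2 in the table was kept apart from Plin2. Alternatives were other scalings, TPM, pseudocounts, filters, a block, trend removal and leaving out each library.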

Additional observations from a re-analysis of the deposited data

How the results depend on the processing

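Of 65 named genes under 24 alternatives (1560 values), 1019 kept direction and side of the threshold, 503 fell short of it, 19 newly passed and 19 changed direction. All 40 calls taken by the naming rule fell short with the groups fitted alone, with no filter, with the GC trend removed, and without Sham+pimobendan replicate 2 or 3 or TAC+pimobendan replicate 2 or 3. The total of 558 calls became 51 at absolute log2 fold changes from 1 upwards, 356 with median-ratio scaling, 298 with quantile normalization, 734 on TPM, 279 with the length trend removed, and 0 with no filter, with the groups alone, with the GC trend removed, and with GC and length trends removed. Leaving out a library gave 0 to 1225 calls, and 0 to 773 for the interaction. In the pimobendan groups, same-numbered mice did not deviate together (r = -0.26, 0.096 and -0.13), and mice of different numbers had r from -0.20 to 0.26. Deviations within a group of 3 sum to 0, so these few values cannot exclude that the numbers stand for a shared batch. With the replicate number as a block 0 genes were called, alone or with the GC trend removed, and the interaction stayed at 0. Direction changed for Spred1 (-0.047 with the GC trend removed or with the block added to it, -0.059 with GC and length removed), Hif1a (-0.035, -0.035 and -0.058), Pde3a (-0.27, -0.27 and -0.35; -0.17 with length removed; -0.082 to 0.19 over the libraries left out), Nppa (-0.081 to 0.59 over the libraries left out) and Atp2a2 (-0.017 with median-ratio scaling, -0.085 with length removed, -0.021 with GC and length removed, -0.036 to 0.065 over the libraries left out). The cause was not tested. Depth is unknown, and 3 mice per group limit the precision.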

Other observations

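Several gene families with many called members, chosen after their values were seen and therefore given without a test, lay outside the lists. Of 11 genes of cohesin, the ring that holds sister chromatids and chromatin loops, and of its loaders, 7 rose (63.6%, beside 4.64% of all genes tested), and their median transcript GC content was 42.4%. Their median log2 fold change was 0.64, and 0.34 with the GC trend removed. Nipbl, which loads cohesin on chromatin, had 1.45, 1.41 and 0.97 FPKM in Sham+pimobendan and 2.01, 4.14 and 4.68 FPKM in TAC+pimobendan, without overlap. Stag2, a subunit of the ring, had 2.50, 2.80 and 1.85 FPKM against 3.64, 6.76 and 7.35 FPKM, also without overlap. Importins and exportins, which carry proteins through nuclear pores, rose in 5 of 23 (21.7%), with a median of 0.24 that became -0.014 with the GC trend removed. Zinc finger genes with symbols that begin with Zfp rose in 34 of 232 (14.7%), and deubiquitinases with symbols that begin with Usp in 8 of 43 (18.6%). Their medians of 0.16 and 0.14 became 0.081 and 0.067 with the GC trend removed. In none of these families did a member fall, beside 0.245% of all genes, a share too low for the absence of falls to set them apart.

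Further calls in genes outside the naming rule are given as values, chosen after they were seen. Gpihbp1, which carries lipoprotein lipase across the capillary endothelium, fell while Lpl rose. It had 168, 173 and 167 FPKM in sham and 97.0, 118 and 132 FPKM in loaded ventricles (log2 fold change -0.56 ± 0.12, limma adjusted p = 0.0314). Mlycd, the malonyl-CoA decarboxylase that relieves the block on fatty acid import into mitochondria, had 106, 88.7 and 91.0 FPKM against 73.5, 56.5 and 74.7 FPKM, without overlap (-0.48 ± 0.12, limma adjusted p = 0.0412). The protein kinases Rock1 and Rock2 rose by 1.05 ± 0.24 and 1.04 ± 0.20 on the log2 scale (limma adjusted p = 0.0348 and 0.0314). Nr3c1, the glucocorticoid receptor, had a transcript GC content of 53.1%, above the median of all genes. It had 9.51, 10.5 and 9.08 FPKM against 14.4, 16.6 and 17.3 FPKM, and rose by 0.67 ± 0.13 (limma adjusted p = 0.0314). None of the genes in this paragraph passed with the GC trend removed, and the cause of their changes was not tested.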
